A study of Homo sapiens with 6 samples.

Results

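SW620 is a human colorectal cancer cell line, started from a lymph node metastasis, that grows in culture. Its microRNAs (miRNAs) were measured after stable transfection with a pSUPER gfp-neo vector that expresses a small interfering hairpin (shRNA) directed at TGFB1, which encodes the growth factor TGF-β1. They were compared with SW620 cells stably transfected with the same vector carrying a control shRNA. Both groups thus carry the vector, its green fluorescent protein and its neomycin resistance, and untransfected SW620 cells were not analysed here. The comparison holds 1 array per shRNA, 2 of the 6 arrays of the study, and all 1891 human miRNA probes among 3533 probe identifiers. The arrays were chosen by their titles and the probes by their names. The other 4 arrays are the same pair in the colorectal cancer lines Lovo and HT29. All label fields agree on the vector for both SW620 samples, whereas 1 field names the opposite vector for the control of Lovo and for the knockdown of HT29. The labels describe separately grown and harvested cultures. The sources used here do not say whether a transfected line is 1 clone or a pool. The TGFB1 messenger RNA is not among the targets of these arrays, so they cannot check its knockdown.

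A miRNA is a short RNA that guides the silencing complex to messenger RNAs, mostly through its seed, bases 2 to 8 from its 5′ end. miRNAs with a shared seed form a family and are taken to reach overlapping targets. TGF-β1 is a secreted factor that signals through a pair of receptor kinases to SMAD proteins. SMADs alter transcription and have also been described to act on the processing of some miRNA precursors, miR-21 and miR-199a among them. In colorectal epithelium the pathway restrains growth, and many colorectal cancers lose a part of it. The miR-200 family, in contrast, is known for holding the epithelial state against TGF-β.

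The sequences below belong to the miRNAs on which the results turn, with the seed in capitals, written 5′ to 3′. The first 5 were higher with the TGFB1 shRNA and the others lower, or are close relatives of a lower one.
miR-4711-3p: cGUGUCUUcuggcuugau
miR-3121-5p: uCCUUUGCcuauucuauuuaag
miR-4800-3p: cAUCCGUCcgucuguccac
miR-4329: cCUGAGACccuaguuccac
miR-4787-5p: gCGGGGGUggcggcggcauccc
miR-20a-5p: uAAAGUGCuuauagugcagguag
miR-17-5p: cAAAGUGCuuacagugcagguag
miR-20b-5p: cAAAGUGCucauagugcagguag
miR-106a-5p: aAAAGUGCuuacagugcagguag
let-7a-5p: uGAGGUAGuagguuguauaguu
let-7e-5p: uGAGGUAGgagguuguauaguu
let-7f-5p: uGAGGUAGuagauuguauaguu
miR-199a-5p: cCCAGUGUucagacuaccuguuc
miR-33a-5p: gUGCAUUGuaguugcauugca
miR-140-3p: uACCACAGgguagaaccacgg
miR-30a-5p: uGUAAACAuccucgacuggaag
miR-30e-5p: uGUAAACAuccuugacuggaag
miR-23b-3p: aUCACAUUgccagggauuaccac
miR-23a-3p: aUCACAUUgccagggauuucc
miR-21-5p: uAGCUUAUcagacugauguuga
miR-31-5p: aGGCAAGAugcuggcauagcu
These are RefSeq mature sequences on build GRCh38.p14, matched by name, as were 1566 of the 1891 human probes and 310 of the 368 detected on both SW620 arrays. The sequences of the capture probes were not used here. The miR-4711-3p sequence lies on the minus strand at chr1:59733235-59733252, inside the interval of the protein-coding gene FGGY. That of miR-20a-5p lies on the plus strand at chr13:91351072-91351094 in the long non-coding host gene MIR17HG. miR-33a-5p lies on the plus strand at chr22:41900949-41900969 inside SREBF2, miR-140-3p on the plus strand at chr16:69933142-69933162 inside WWP2, and miR-21-5p on the plus strand at chr17:59841273-59841294 inside VMP1. miR-31-5p lies on the minus strand at chr9:21512158-21512178 in the non-coding host gene MIR31HG. miR-199a-5p comes from 2 hairpins, at chr1:172144592-172144614 inside DNM3 and at chr19:10817469-10817491 inside DNM2, both on the minus strand. The annotation used gives gene intervals only, so exon and intron were not told apart.

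The signal of a probe is given as foreground minus background intensity, taken as the median of its spots. A signal of at least 50 counted as detected. Passing this limit does not by itself show that a miRNA was present. Of 146 viral miRNA probes, 24 passed it on both SW620 arrays, as did 413 of 1401 probes with no name. Of the 1891 human miRNA probes, 368 did. The knockdown array detected 398 human miRNAs (21.0%) and the control array 502 (26.5%). Of these, 368 were detected on both arrays, 30 on the knockdown array alone and 134 on the control array alone. The median spot background was 173 on the knockdown array and 138 on the control array. Epithelial markers were mostly not detected: of the 5 miR-200 family probes, 0 were detected on the knockdown array and 1 on the control array, miR-200c-3p with a signal of 81. Of 5 gut epithelial miRNAs, only miR-375 was detected, at 64 and 255.5, while miR-192-5p, miR-194-5p, miR-215 and miR-203a were not detected on either array. The epithelial origin of colorectal cancer cells was therefore not visible on these probes. Markers of other cell types were detected in part. Detected on neither array were 3 of 8 fibroblast and smooth muscle markers and 6 of 11 muscle, liver and brain markers. The same held for 8 of 9 miRNAs of pluripotent cells and for 2 of 8 blood cell markers. The brightest blood cell marker, miR-142-3p, had a signal of 1097.5 on the knockdown array and 1194.5 on the control array. The summed signal of the 8 blood cell markers was 1487 and 2176, with miR-144-3p undetected on both arrays, and its part in the differences was not tested.

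Among the 368 miRNAs detected on both arrays, 23 (6.25%) were at least 2-fold higher and 30 (8.15%) at least 2-fold lower with the TGFB1 shRNA, on normalised log2 levels. The other 315 lay within 2-fold, 230 of them within 1.5-fold, and the median log2 difference was 0.02 with quartiles of -0.40 and 0.46. Just outside the lower threshold lay miR-5701 at -0.99 and just inside it miR-3157-3p at -1.02, while miR-660-3p at 1.01 was just inside the upper one. With 1 array per shRNA there is no test of these differences, and the SE given with each is over the replicate spots of a probe, 4 for nearly all, as a technical error only. Levels were background-corrected with an offset of 50, so that the difference of a dim miRNA is understated. The balance of higher and lower miRNAs followed the scaling between arrays: without normalisation 44 were higher and 16 lower, with median scaling 17 and 32, and with scaling to the spike controls 4 and 80. The authors' value table gave 41 higher and 105 lower. Before normalisation, 13 of the 16 spike controls with signal on every array were brighter on the knockdown array, with a median log2 difference of 0.74, against 0.18 for the 368 miRNAs. The median of the 368 was -0.59 after spike scaling and -0.35 in the authors' value table, so single differences are read relative to the other miRNAs. Of 41 named miRNAs followed through 12 settings, 31 differed by at least 2-fold in the main setting, and each of those 31 kept 1 sign in all 12. Most of the 41 were named for their large differences, and the settings reuse the same spots. The kept sign is therefore no independent check. Under every scaling between arrays, 18 of them differed by at least 2-fold.

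**Figure D1:**
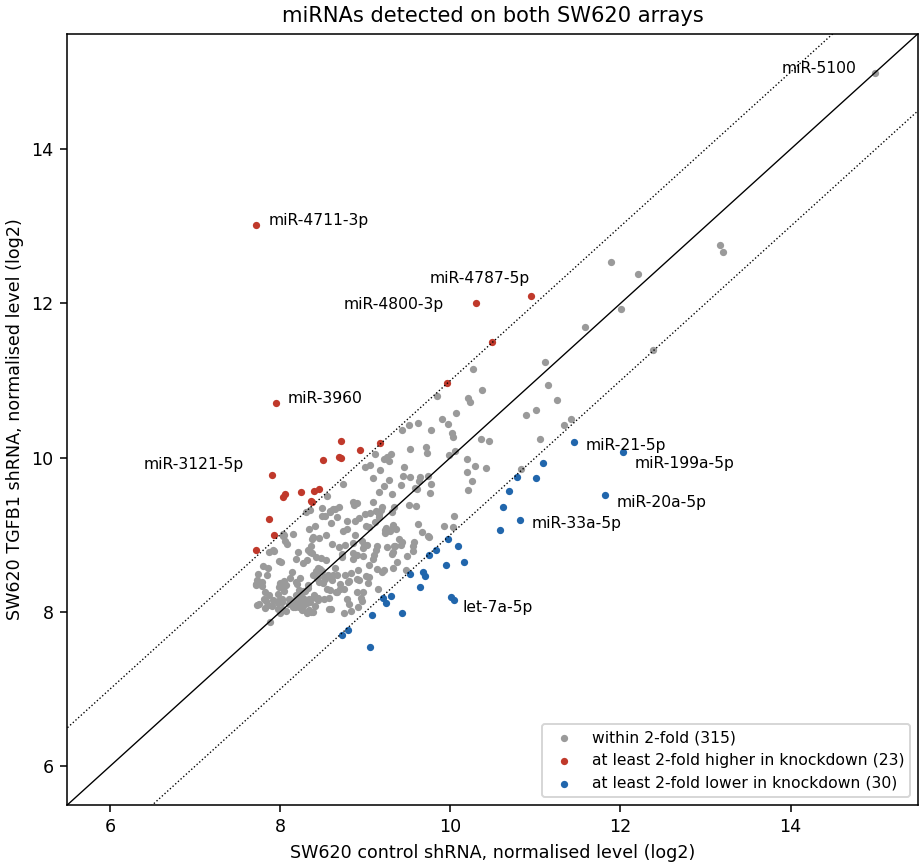
Normalised log2 level of each of the 368 miRNAs detected on both SW620 arrays, control shRNA on the x axis and TGFB1 shRNA on the y axis, with the line of equality and dotted lines at 2-fold. The 23 higher miRNAs (red) are led by miR-4711-3p, far above the rest, and the 30 lower ones (blue) include bright probes such as miR-20a-5p, miR-199a-5p and miR-21-5p.

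miR-4711-3p stood furthest apart. Its 4 spots read 7140, 7503, 5666 and 5469 on the knockdown array and 91, 69, 39 and 34 on the control array, given here and below as foreground minus background with the first block set before the last. All knockdown spots were thus above all control spots, and the log2 difference was 5.30 ± 0.15 (SE over spots). The level on the control array, a median of 54, was only just above the detection limit. The opposite arm of the same hairpin, miR-4711-5p, was detected on neither array, with signals of -85 and -49.5. In the other lines miR-4711-3p was bright in HT29, at 4983.5 with the TGFB1 shRNA and 3047 with the control shRNA, and dim in Lovo, at 261 and 228. The SW620 knockdown signal of 6403 was therefore nearer to those of HT29 than to those of Lovo, and the SW620 control signal was the lowest of all 6.

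The next miRNAs differed by less and their spots were less even. miR-3960 read 1566, 1521, 1503 and 1483 on the knockdown array and 643, 617, -84 and -134 on the control array, a difference of 2.76 ± 1.00. Its knockdown spots were even, while the control spots of the last block set lay below background. Taken by block set, its difference was 1.25 and 4.43. miR-3121-5p read 388, 477, 701 and 1703 against 107, 125, 30 and 75, a difference of 1.87 ± 0.40 with no overlap of spots. miR-4800-3p, the brightest of these after miR-4711-3p, read 5333, 5827, 2586 and 3321 against 1016, 921, 873 and 1337, a difference of 1.70 ± 0.29. Its knockdown spots all lay above its control spots, and the gap was wider in the first block set. miR-4329 read 434, 504, 1967 and 1868 against 305, 301, 165 and 173, a difference of 1.50 ± 0.50. Bases 1 to 12 of miR-4329 are the same as bases 3 to 14 of miR-125b-5p, one of the 10 brightest probes, which itself differed by -0.08. Whether the 2 probes capture each other's miRNA was not tested.

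Among the other miRNAs of the 15 highest, miR-5699 had even spots, at 521, 525, 675 and 516 against 150, 132, 76 and 71, and a difference of 1.48 ± 0.13. miR-1321 differed by 1.48 ± 0.24 and miR-3667-5p by 1.31 ± 0.16. miR-4787-5p was already bright with the control shRNA, at 1631, 1650, 1720 and 1887, and read 2977, 4086, 5352 and 5119 with the TGFB1 shRNA. Its difference was 1.14 ± 0.19. miR-3611 shows the weakest case, since 1 of its control spots read -82 and the other 3 read 647, 570 and 596, against 556, 647, 1201 and 1443 with the TGFB1 shRNA. Its spots overlapped, with a difference of 1.16 ± 0.86. Little is established about the function of most of these late-numbered miRNAs. miR-485-3p, from the large imprinted miRNA cluster of chromosome 14, differed by 1.28 ± 0.21.

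The miRNAs that were lower included many well-studied ones. miR-20a-5p, a member of the growth-promoting miR-17-92 cluster, read 1508, 1658, 300 and -7 on the knockdown array and 3534, 3063, 4094 and 4330 on the control array. All knockdown spots lay below all control spots, and the difference of -2.30 ± 0.78 was -0.69 in the first block set and -3.99 in the last. miR-199a-5p, known from fibroblasts and as a target of SMAD-aided processing, read 1076, 1000, 809 and 667 against 4929, 4393, 4276 and 4112. Its difference of -1.96 ± 0.14 was at least 2-fold in each block set, at -1.65 and -2.39. let-7a-5p, of the family that restrains RAS and MYC, read 61, 126, 162 and 43 against 780, 857, 745 and 781, a difference of -1.81 ± 0.14. let-7c read 260, 244, -1 and -43 against 1025, 868, 785 and 634, a difference of -1.90 ± 0.40. The spots of both let-7 probes were fully apart, and 2 of the knockdown spots of let-7c were below background.

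miR-33a-5p lies within the gene of the sterol regulator SREBF2 and is known to limit cholesterol export. It read 430, 387, 476 and 334 against 1435, 1486, 1740 and 1784, a difference of -1.63 ± 0.10. miR-140-3p, best known from cartilage, read 482, 590, 225 and 259 against 1571, 1666, 1080 and 1033, a difference of -1.52 ± 0.27. The spots of both miRNAs were fully apart. miR-21-5p, a miRNA abundant in many tumours, read 568, 732, 1416 and 1453 against 2694, 2706, 2739 and 2991, a difference of -1.25 ± 0.28. miR-31-5p, which is described as raised in colorectal tumours, read 545, 687, 711 and 861 against 1937, 2549, 1331 and 1713, a difference of -1.27 ± 0.21. Neither pair of spot sets overlapped. miR-130a-3p, described to target SMAD4, read -23, 9, 703 and 643 against 629, 1025, 777 and 1194. Its spots overlapped on the normalised scale, and its difference of -1.52 ± 0.64 was -2.23 in the first block set and -0.76 in the last. miR-4286 and miR-3607-5p had small errors, with differences of -1.34 ± 0.14 and -1.23 ± 0.07. The miR-3651 sequence lies inside the interval of the small nucleolar RNA gene SNORA84, and its difference was -1.52 ± 0.51.

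**Figure D2:**
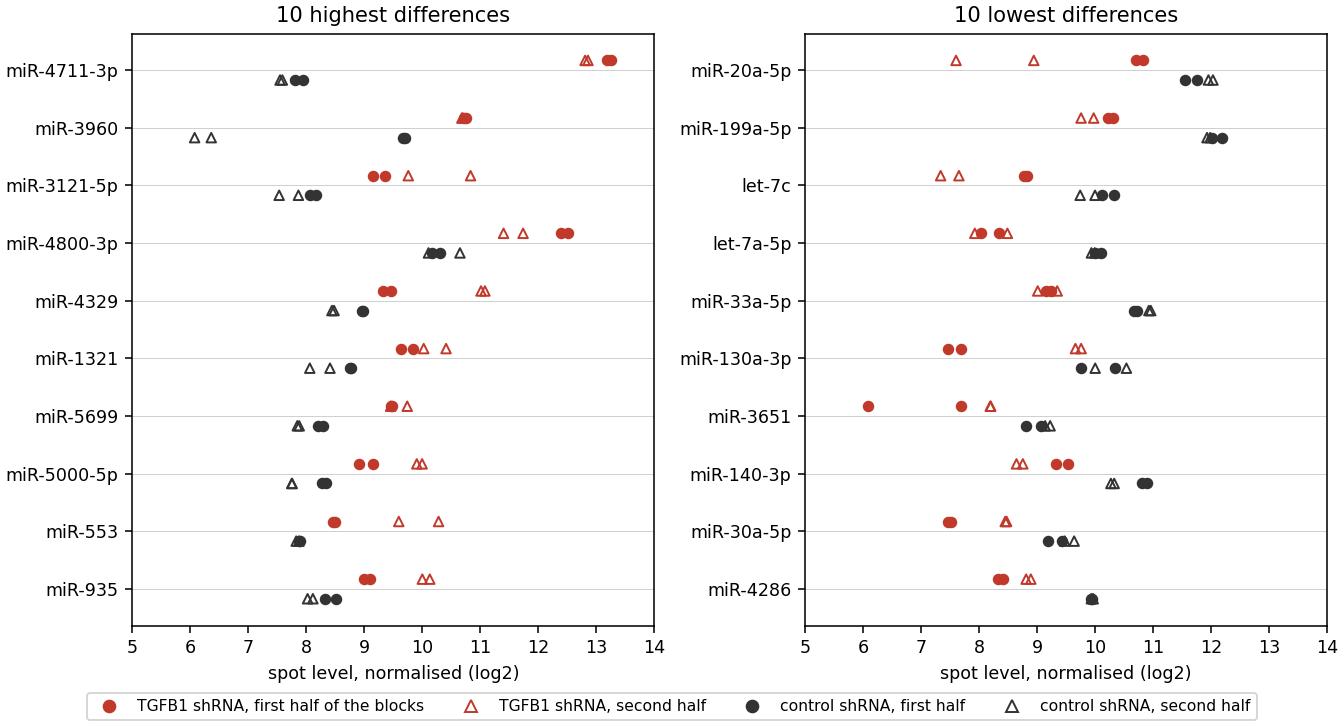
Normalised log2 level of every replicate spot (x axis) for the 10 highest and 10 lowest differences in SW620, TGFB1 shRNA in red and control shRNA in black. Filled circles are spots in the first 18 blocks and hollow triangles spots in the last 18. Pairs within a block set sit close together, while block sets of miR-3960, miR-20a-5p and miR-130a-3p lie apart.

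Each array has 36 blocks, and each probe has a pair of spots in the first 18 blocks and a pair in the last 18, a division made here after the data were seen. Within a pair the median log2 range was 0.10 on the knockdown array and 0.11 on the control array. Between the block sets of 1 array the median gap was larger, 0.36 on the knockdown array and 0.26 on the control array. It was at least 2-fold for 28 and 42 of 367 miRNAs, so the 4 spots of a probe are not independent readings. In 111 of the 368 miRNAs the block sets differed in sign. In 3 they disagreed by at least 2-fold either way, and these were named after their values were seen: miR-24-3p at -1.65 and 1.35, miR-30e-5p at -1.90 and 1.33, and miR-3178 at -1.16 and 1.61. miR-24-3p read 48, 164, 853 and 921 against 789, 978, 236 and 115, so its whole difference of -0.28 is an average of opposite readings. Among the 23 higher and 30 lower miRNAs, which the mean of the same spots selected, only miR-29a-3p had block sets of opposite sign, at 0.07 and -1.99.

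At least 2-fold in each block set separately were 10 higher and 15 lower miRNAs. The 10 higher were miR-4711-3p, miR-3960, miR-3121-5p, miR-1321, miR-5699, miR-3667-5p, miR-4787-5p, miR-374c-3p, miR-4520a-5p/miR-4520b-5p and miR-2355-3p. The 15 lower were let-7a-5p, let-7c, miR-21-5p, miR-30a-5p, miR-30c-5p, miR-31-5p, miR-33a-5p, miR-103a-3p, miR-140-3p, miR-199a-5p, miR-382-3p, miR-708-5p, miR-3651, miR-4286 and miR-4695-3p. miR-20a-5p, the lowest of all on average, is not among them. Over all 368 miRNAs, the spots were all higher on the knockdown array for 72 (19.6%) and all lower for 88 (23.9%). On the same spots that selected them, 22 of the 23 higher miRNAs had separated spots, all but miR-3611, and 28 of the 30 lower ones, all but miR-130a-3p and miR-19b-3p. Separated spots thus occurred in many miRNAs with small differences too. Pearson's r of the 2 block sets' differences over the 368 miRNAs was 0.53, as a description of points that share the same arrays.

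miRNAs detected on only 1 of the arrays have a bound in place of a fold. The bound sets the brighter array against the higher of the dim probe's own level and the lowest detected level on the dim array. Of the 134 detected with the control shRNA alone, 114 had a bound above 1 and 10 a bound of at least 2-fold. Of the 30 detected with the TGFB1 shRNA alone, 30 had a bound above 1 and 3 a bound of at least 2-fold. miR-27a-3p, known from fat cell and muscle biology, had the highest bound among the first. It read -31, 20, -54 and -51 with the TGFB1 shRNA and 291, 387, 267 and 258 with the control shRNA, and was at least 2.74-fold lower. miR-125b-1-3p was at least 2.38-fold lower, the blood cell miRNA miR-142-5p at least 2.34-fold, miR-25-3p at least 2.31-fold and miR-148a-3p at least 2.08-fold. miR-25-3p belongs to the miR-106b-25 paralogue of the miR-17-92 cluster. In the other direction miR-548ao-3p, with signals of 368 and 30.5, was at least 2.83-fold higher. miR-451a, the miRNA of red blood cells, read 239, 291, 53 and 11 against -28, -18, -43 and -42 and was at least 1.84-fold higher. The probe shared by miR-199a-3p and miR-199b-3p had a bound of 1.99-fold higher, with signals of 191.5 and 24. miR-199a-5p, from the miR-199a hairpins alone, was lower, so these probes do not compare the arms of the same hairpins only. The spots of the shared probe overlapped, and its log2 difference was 0.24 in the first block set and 1.86 in the last.

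Members of a family differed by unequal amounts. The let-7 list had 7 of 10 probes detected on both arrays, of which 0 were at least 2-fold higher and 2 lower. Over all 368 the shares were 6.25% and 8.15%, and the list median was -0.76 against 0.02. In this and every other list, the members detected on both arrays have registry numbers from 1 to 499. In that class, described below, 3.42% were higher and 17.1% lower, with a median of -0.20. The list holds miR-202-3p, whose seed is GAGGUAU, and leaves out miR-4500, which has the let-7 seed GAGGUAG and differed by 0.02. Over the 7 detected probes matched to that seed, miR-4500 included and the unmatched let-7c not, the median was -0.73, with 1 lower. The median relative to all miRNAs stayed below 0 in all settings run, from -1.09 to -0.53. let-7b-5p, let-7g-5p and let-7i-5p lay between -0.77 and -0.73, let-7e-5p at -0.38 and let-7d-5p at 0. let-7e-5p differs from let-7a-5p by a single base, U9G (the let-7a base, the position counted from the 5′ end, then the other base). It read 692, 771, 732 and 733 against 1099, 1072, 814 and 743, closer than the signals of let-7a-5p, 93.5 and 780.5. let-7f-5p, apart from let-7a-5p by G12A, was detected on neither array, with signals of -41.5 and -14.5. The let-7b-5p difference came from the first block set, where the control spots read 2036 and 1643, while in the last set they read 55 and 76 against 301 and 356 with the TGFB1 shRNA.

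The seed AAAGUGC of miR-20a-5p was shared by 5 detected miRNAs, with differences from -2.30 to 0.66 and a median of -0.42. miR-17-5p, which differs from miR-20a-5p by U1C and U12C and is cut from the same transcript, read 309, 284, 288 and 255 against 1780, 621, 91 and 82. Its difference was -0.42, and its control spots spanned the knockdown spots. miR-20b-5p, apart from miR-20a-5p by U1C and U10C, differed by 0.14, and miR-106a-5p by -0.78. Within the wider miR-17-92 list, 8 of 13 probes were detected on both arrays, 0 higher and 2 lower by 2-fold, beside 6.25% and 8.15% over all 368, with a median of -0.14. miR-19b-3p and miR-19a-3p, which differ by C11U, stood at -1.04 and 0.87. The list median turned positive without normalisation, with plain background subtraction, over median spots and in the last block set, and was -0.73 in the first.

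In the miR-30 family, all 5 probes were detected on both arrays, 0 were at least 2-fold higher and 2 lower, beside 6.25% and 8.15% over all 368, with a median of -0.35. miR-30a-5p, of a family known to restrain the epithelial to mesenchymal transition, read -22, -29, 146 and 152 against 359, 453, 473 and 546, a difference of -1.45 ± 0.29. miR-30c-5p differed by -1.12, miR-30b-5p by 0.20 and miR-30d-5p by 0.47. miR-30e-5p, which differs from miR-30a-5p by C13U, read 11, 17, 200 and 165 against 605, 891, -20 and -18. A similar split held in the miR-23 pair. miR-23b-3p read 680, 758, 407 and 205 against 1251, 1349, 1385 and 1405, a difference of -1.26 ± 0.28, while miR-23a-3p, apart by A19U over the first 21 bases, had 159, 49, 389 and 393 against 308, 176, 4 and 3 and a difference of 0.68. In the miR-15/16 family, which holds back the cell cycle, 4 of 7 probes were detected on both arrays and 0 passed 2-fold either way. With shares of 6.25% higher and 8.15% lower over all 368, 0 of 4 does not set the family apart. miR-16-5p differed by 0.86 and miR-195-5p by -0.75. Of the miRNAs higher by 2-fold, all 19 with a RefSeq sequence had seeds of their own, and the 25 lower ones with a sequence had 24. The 266 with a sequence within 2-fold had 248 seeds, so mostly separate seeds do not set the higher or lower miRNAs apart.

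TGF-β has been described to raise the 16 miRNAs of another list, and 8 of these were detected on both arrays. Among these 8, 0 were at least 2-fold higher and 4 were at least 2-fold lower, beside 8.15% lower among all 368. The list median was -0.76. All 8 are numbered 1 to 499, a class with 17.1% lower and a median of -0.20. The 4 were miR-199a-5p, miR-21-5p and miR-31-5p, described above, and miR-155-5p. miR-155-5p, an inflammatory miRNA described as a SMAD4 target in mouse mammary cells, read 48, 66, 99 and 94 against 342, 347, 413 and 409, a difference of -1.13. miR-24-3p and miR-183-5p differed by -0.28 and -0.38, and miR-214-3p and miR-10b-5p by 0.12 and 0.46. miR-181a-5p and miR-145-5p were detected with the control shRNA alone, at 139 and 181. The list is a small one, and it shares miR-199a-5p, miR-214-3p, miR-143-3p and miR-145-5p with the fibroblast markers and miR-155-5p with the blood cell markers. Of the 8 fibroblast and smooth muscle markers, 2 were detected on both arrays and 1 of them, miR-199a-5p, was lower, beside 8.15% over all 368. Their summed signal was 1553 with the TGFB1 shRNA and 4962.5 with the control shRNA, and miR-143-3p was detected on neither array. What these markers contribute was not tested.

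Of 13 miRNAs described as raised in colorectal tumours, 7 were detected on both arrays, with 0 higher and 3 lower by 2-fold, beside 6.25% and 8.15% over all 368, and a median of -0.78 beside 0.02. The 3 were miR-20a-5p, miR-21-5p and miR-31-5p. All 7 are numbered 1 to 499, a class with 17.1% lower and a median of -0.20. Of 12 described as lowered in such tumours, 5 were detected on both, with 1 higher, 0 lower and a median of -0.57, so that the single higher member is near the share over all 368 (6.25%). The higher one was miR-378a-3p, which lies inside PPARGC1B, a gene of energy metabolism. It read 449, 444, 616 and 505 against 222, 219, 125 and 102, a difference of 1.05. Among the blood cell markers, 3 of 8 were detected on both arrays, and miR-155-5p and miR-150-5p were lower by 2-fold, beside 8.15% over all 368, while miR-142-3p differed by -0.12. Of 11 muscle, liver and brain markers, 4 were detected on both arrays and 1, miR-206, was lower, beside the same 8.15%. Of 9 miRNAs of pluripotent cells only miR-302a-3p was detected on both arrays, at 0.44. The miR-34 family, whose members are known p53 targets, had 0 of 6 probes detected on both arrays, and miR-34a-5p and miR-34c-5p were detected with the TGFB1 shRNA alone at 64.5 and 67.5.

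**Figure D3:**
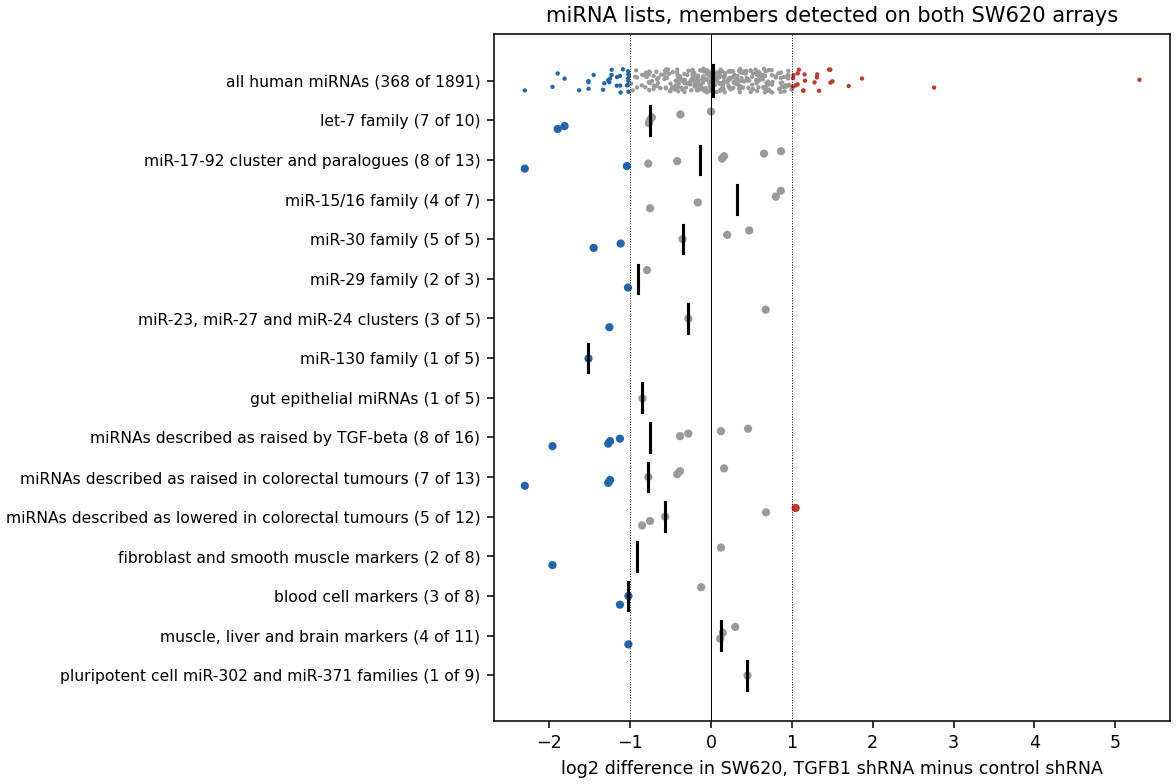
Log2 difference in SW620 (x axis, TGFB1 shRNA minus control shRNA) of the members of each list detected on both arrays, with all 368 human miRNAs in the top row and dotted lines at 2-fold. Black bars are medians, and labels give the detected members of the probes on the array. The let-7 median lies at -0.76 and that of all miRNAs at 0.02.

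The arms of a hairpin are cut from 1 precursor. Of 175 hairpins with a probe for each arm and at least 1 arm detected on both arrays, 21 had both arms detected there. The arms of 9 differed in the same direction and those of 11 in opposite directions, and let-7d-5p stood at 0. Of the 21, 0 had both arms at least 2-fold in 1 direction, and 6 had arms at least 1 log2 unit apart. miR-140-5p differed by 0.36 ± 0.40 against -1.52 ± 0.27 for miR-140-3p. miR-5000-3p read 169, 146, 129 and 144 against 296, 327, 247 and 221, a difference of -0.47, while miR-5000-5p read 287, 378, 844 and 779 against 160, 145, 58 and 57, a difference of 1.46. The 2 arms of miR-5000 were thus both apart in their spots, in opposite directions. miR-3607-3p differed by 0.95 ± 0.78, a large error, against -1.23 ± 0.07 for miR-3607-5p. miR-4800-5p differed by 0.16 ± 0.17 against 1.70 ± 0.29 for miR-4800-3p. miR-5002 was the pair with both arms furthest in 1 direction, at 0.73 and 0.91. The arm pairs outside the 15 highest and lowest were chosen after their values were seen.

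The lower miRNAs were gathered among those with low registry numbers, the numbers given in order of description. Of 117 miRNAs numbered 1 to 499 and detected on both arrays, the let-7 family included, 20 (17.1%) were at least 2-fold lower and 4 (3.42%) higher, with a median of -0.20. Of 128 numbered 4000 to 5708, 5 (3.91%) were lower and 8 (6.25%) higher, with a median of 0.05. Those numbered 500 to 1999 had 2 (2.86%) lower and 5 (7.14%) higher of 70. Those numbered 2000 to 3999 had 3 (5.66%) lower and 6 (11.3%) higher of 53, the largest share higher of the 4 classes. The same low-numbered miRNAs had the least even spots. On the control array the block sets were at least 2-fold apart for 20.5% of those numbered 1 to 499 and for 3.91% of those numbered 4000 to 5708, and on the knockdown array for 12.8% and 2.34%. The part of the spot gaps in this pattern was not tested, and the classes were chosen after the data were seen. The list members detected on both arrays all belong to the 1 to 499 class. The shares over all 368 given beside the lists also hold the later numbers. Base composition did not follow the difference: Pearson's r between GC content and difference was -0.03 over the 310 matched miRNAs, and median GC was 47.6% in the higher and 47.8% in the lower ones. The mean level had an r of -0.05 with the difference over the 368. Both are descriptions over probes that share 2 arrays.

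**Figure D4:**
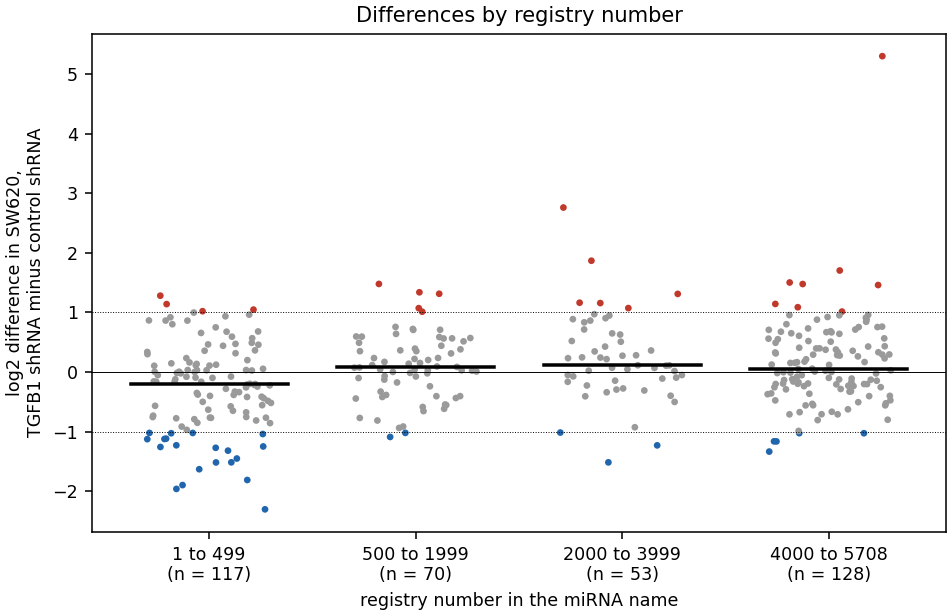
Log2 difference in SW620 (y axis, TGFB1 shRNA minus control shRNA) of the 368 miRNAs detected on both arrays, by the registry number in their names (x axis), with medians as black bars and dotted lines at 2-fold. Of the 30 lower miRNAs (blue), 20 are numbered 1 to 499.

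The SW620 difference was set against the mean difference of Lovo and HT29 in limma, with the cell line as a block, over the 570 miRNAs detected on at least 2 of 6 arrays. The single SW620 pair is assumed to vary as the other 2 pairs do, and the fit leaves 1 residual degree of freedom. At a Benjamini-Hochberg adjusted p under 0.05, 1 miRNA (0.175%) was higher and 0 (0%) lower, and at an unadjusted p under 0.05 there were 18 and 13. The call was miR-4711-3p, whose difference in SW620 exceeded the mean of the other lines by 4.39 ± 1.08 (limma adjusted p = 0.0296). It was lost in 9 of 14 other settings, with limma adjusted p-values from 0.0658 without normalisation to 0.99 without the cell line block, and 0.833 with median scaling. The coefficient itself was between 2.59 and 7.38 in all settings. No other miRNA in the fit was called, so those under the unadjusted threshold alone are not read as SW620 differences. An unadjusted threshold of 0.05 is passed by about that share of miRNAs where none differ. miR-125b-5p had the next smallest p among the higher ones detected on all 6 arrays. It differed by -0.08 in SW620 but by -3.89 in Lovo and -2.06 in HT29, so its SW620 coefficient was 2.90 ± 0.98 (limma adjusted p = 0.271). In SW620 itself miR-125b-5p read 3675, 3866, 4179 and 4166 against 7607, 8417, 1747 and 3092. Its block sets on the control array disagreed, and its knockdown spots lay between them.

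Among the SW620 miRNAs detected on all 6 arrays, 22 were at least 2-fold higher, and 12 of these were also above 0 in both other lines. Of 24 at least 2-fold lower, 13 were also below 0 in both other lines. The same shares over all 256 miRNAs detected on the 6 arrays were not computed, so these counts do not measure agreement between the lines. At least 2-fold in all 3 lines were 0 of the higher and 1 of the lower, miR-140-3p. It differed by -1.52 in SW620, -1.96 in Lovo and -1.77 in HT29, and these 3 values are close to each other. The directions in Lovo and HT29 rest on the titles. The field in conflict concerns 1 array of each line. By that field both arrays of a line would carry the same vector and give no contrast, so no field gives a turned pair. With the sign of both pairs turned, an alternative chosen after seeing the data, 2 of the 22 and 3 of the 24 would share the SW620 direction in both lines. With Lovo alone turned these are 6 and 6, with HT29 alone turned 2 and 2, and miR-140-3p is then no longer lower in all 3 lines. These counts cannot show which label is right. miR-199a-5p differed by -1.96, -2.19 and -0.67 in the same order, and miR-4286 by -1.34, -1.17 and -0.73. let-7a-5p differed by -1.81, -0.25 and -1.24. miR-33a-5p was lower in SW620 and HT29, at -1.63 and -0.51, and stood at 0.78 in Lovo. miR-21-5p was lower in SW620 and Lovo, at -1.25 and -1.42, and stood at 0.82 in HT29. Of the higher miRNAs, miR-4787-5p differed by 1.14, 1.77 and 0.87 and miR-485-3p by 1.28, 1.98 and 0.35. No limma call separates SW620 from the other lines for any of these, which does not show that the lines act alike.

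**Figure D5:**
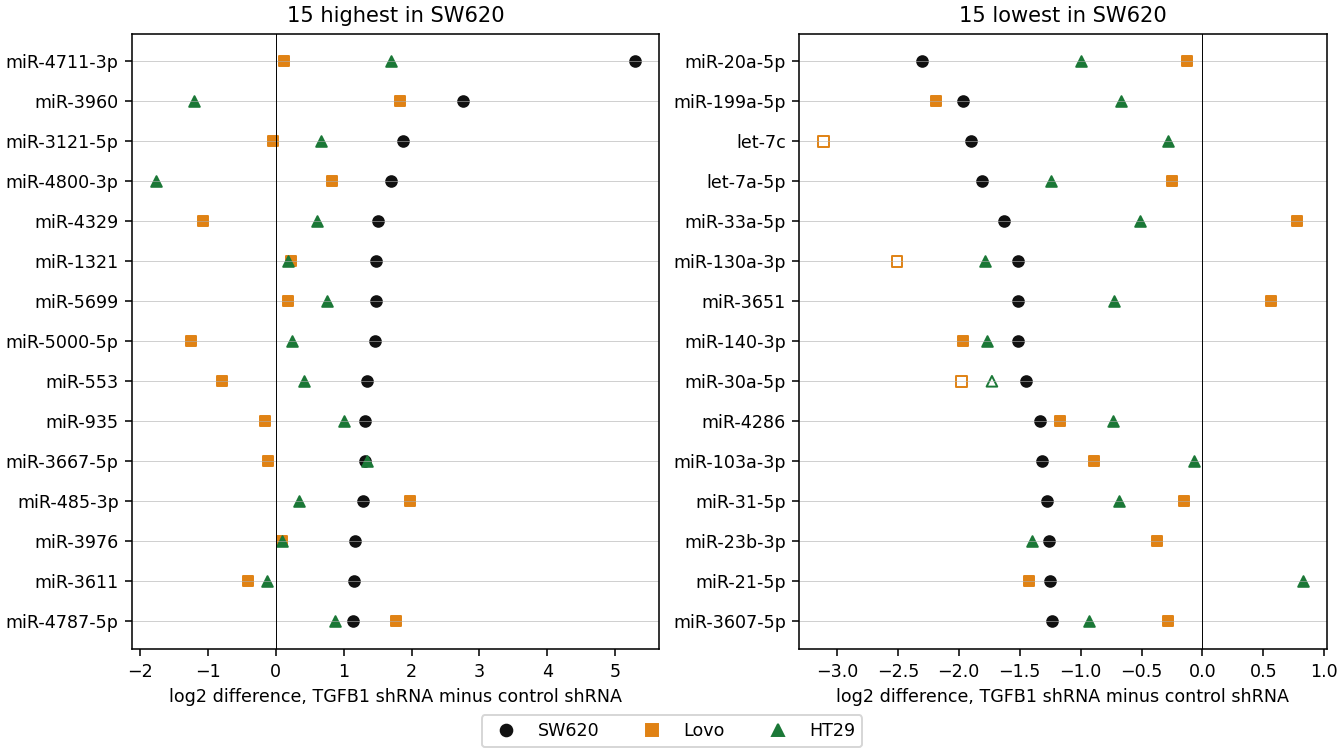
Log2 difference (x axis, TGFB1 shRNA minus control shRNA) of the 15 highest and 15 lowest miRNAs of SW620 in SW620 (circles), Lovo (squares) and HT29 (triangles), 1 array per shRNA in each line. Hollow markers are miRNAs not detected on both arrays of that line. miR-4711-3p stands apart at 5.30 in SW620, and miR-140-3p is below -1.5 in all 3 lines.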

How the data were processed

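Per the labels' protocols, total RNA was end-labelled with the fluorescent dye Hy3 for 1-colour arrays. The sources used here name neither the scanner nor its software. Per the file headers, the deposited table holds foreground intensity and foreground minus background intensity for 15840 spots. The authors' deposited values are a ratio, for which they divided the median signal of a probe by an array factor. The factor, 353.75 for SW620 knockdown and 282.75 for SW620 control, equalled on each array the median over the 330 named miRNA probes with a signal of at least 30 on all 6 arrays. The ratios are linear and not centred per probe, with column medians of 0.551 and 0.446. No column went unused (0).

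Intensities were corrected by normexp (offset 50), put on the log2 scale, averaged per probe and brought to common quantiles over all 6 arrays, with control spots left out (limma 3.58.1, R 4.3.3). Quantile normalisation sets miR-5100, the brightest probe, to the same value on every array. Intensities carry no counts, so precision is limited by the number of arrays. The across-line fit used lmFit and eBayes with a trend. Steps were tested with known differences put in. A single fold, put into the real knockdown spots of some bright probes, came out smaller after the offset and the scaling. Those steps were run together, so their parts were not told apart. On simulated levels the across-line fit, with 1 residual degree of freedom, missed most differences.

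Groups follow the titles. The members, the 17 lists and the tests were chosen with earlier results of these data known. Named were the 15 highest and 15 lowest differences where both arrays detected a miRNA, up to 8 each way detected on 1 array only, the 10 brightest, the 5 highest and 5 lowest across lines by p, list members, and arms and seed relatives of these. Others were named after their values were seen. Alternatives covered background correction, offset, scaling, detection limit, averaging of spots, the value table, the fold threshold and the variance model.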

Additional observations from a re-analysis of the deposited data

Results flagged for a closer look

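In 6 miRNAs the SW620 difference stood apart from another line. For miR-4711-3p the SW620 difference exceeded the mean of Lovo and HT29 by 4.39 in limma, a call lost in 9 of 14 other settings. The other 5 were at least 2-fold in SW620 and at least 2-fold the opposite way in another line, a criterion set after the data were seen, and the difference between the lines was not called in limma. Against Lovo, miR-4329 differed by 1.50 in SW620 and -1.07 in Lovo, and miR-5000-5p by 1.46 and -1.26. Against HT29, miR-3960 differed by 2.76 in SW620 and -1.20 in HT29, miR-4800-3p by 1.70 and -1.76, and miR-3157-3p by -1.02 and 1.01. For the HT29 knockdown and the Lovo control 1 label field names the opposite vector, so the direction in those lines rests on the titles.

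Signal was also present on probes outside the human miRNAs. Of 146 viral miRNA probes, 24 were detected on both SW620 arrays, 1 (4.17%) at least 2-fold higher with the TGFB1 shRNA and 1 (4.17%) lower. Of 1401 probes with no name, 413 were detected on both arrays, 15 (3.63%) at least 2-fold higher and 25 (6.05%) lower. Over the 368 human miRNAs the shares were 6.25% and 8.15%, so neither kind of probe exceeded them.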

How the results depend on the processing

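Of the 368 miRNAs, 23 were higher and 30 lower by 2-fold in the main setting. Without normalisation between arrays the counts were 44 and 16, with scaling on the spike control probes 4 and 80, with plain background subtraction 95 and 69, in the values of the authors 41 and 105, and at a 1.5-fold threshold 75 and 63. The last block set alone gave 38 higher. Median scaling, cyclic loess, quantile normalisation over the 2 SW620 arrays, foreground intensity alone, an offset of 16, other detection limits and the median over spots gave 17 to 31 higher and 23 to 33 lower. Spots all lower numbered 51 without normalisation, against 88. The split by sign followed the median log2 difference of the 368, which was 0.02 in the main setting, 0.18 without normalisation and -0.59 with spike scaling. Single miRNAs did not all move 1 way. Without normalisation miR-3121-5p went from 1.87 to 2.03 and miR-4711-3p from 5.30 to 5.04. Across lines 1 miRNA was called, 0 in the 9 settings that lost the call and 11 over all 1891 human probes, miR-21-3p and miR-146a-5p among them, which neither SW620 array detected. The cause of the lost calls was not tested. No followed difference that was at least 2-fold changed its sign, but most were chosen for their size, and the settings reuse the same spots. The across-line fit pairs the arrays by cell line; the labels carry no replicate numbers. Leaving out a Lovo or HT29 pair leaves no residual degree of freedom. With 1 array per shRNA, culture-to-culture spread is unknown, and spots show the technical error of an array alone.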
